A study of Mus musculus with 4 samples.

Results

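The miR-200 family was followed in small RNA of MIN6 cells and of the exosomes that they release. It comprises both arms of 5 hairpins, mir-200a, mir-200b, mir-200c, mir-141 and mir-429, and its 10 mature miRNAs were picked by name from the 1915 mature mouse miRNAs listed by the authors. MIN6 is a mouse insulinoma line, a single tumor line of pancreatic β-cell origin that secretes insulin. The MIN6-cells group was sequenced in 2 libraries and the MIN6-derived exosomes group in 2 libraries. Both groups come from cells kept in DMEM with exosome-depleted fetal bovine serum, penicillin-streptomycin and β-mercaptoethanol, and neither carries a genetic change or a drug treatment in the labels. Whether the replicates are separate cultures is not stated, so the p-values measure the spread between these libraries, which may be technical.

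A hairpin precursor is cut into a duplex, and one arm, the 5p or the 3p strand, is usually kept by Argonaute while the other is degraded. The kept strand finds its target mRNAs mainly through the seed, bases 2 to 8 from its 5′ end. The miR-200 family is known as a keeper of the epithelial state, because its 3p strands repress Zeb1 and Zeb2, transcription factors that silence E-cadherin, and these factors in turn repress both miRNA clusters. β-cells are epithelial cells, and the family is known to be abundant in islets and to influence β-cell survival. Exosomes are small vesicles of endosomal origin that carry RNA out of the cell.

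The sequences are shown first because the members fall into groups by seed. All 10 mature sequences and all 5 hairpins in the authors' files matched those of RefSeq (GRCm38.p6), from which they are printed here in 5′ to 3′ direction, with the seed in capitals. The prefix mmu- marks a mouse miRNA and is dropped in the text that follows. The 3p strands with the seed AAUACUG were the following.
mmu-miR-200b-3p: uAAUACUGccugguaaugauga
mmu-miR-200c-3p: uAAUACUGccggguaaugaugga
mmu-miR-429-3p: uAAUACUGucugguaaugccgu
The 3p strands with the seed AACACUG were the following.
mmu-miR-200a-3p: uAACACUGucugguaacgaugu
mmu-miR-141-3p: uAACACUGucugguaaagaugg

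No other listed miRNA with a RefSeq sequence carried either of these seeds. Positions are counted from 1 at the 5′ end, and the single seed difference between miR-200b-3p and miR-200a-3p was U4C. miR-200b-3p and miR-200c-3p, which come from different chromosomes, were identical at 20 of the 22 positions compared (U11G and A22G). miR-200a-3p and miR-141-3p were likewise identical at 20 of 22 (C17A and U22G). The 5p strands were less alike in their seeds, as shown here.
mmu-miR-200b-5p: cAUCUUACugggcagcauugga
mmu-miR-200a-5p: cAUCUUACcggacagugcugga
mmu-miR-429-5p: gUCUUACCagacaugguuaga
mmu-miR-200c-5p: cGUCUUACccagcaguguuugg
mmu-miR-141-5p: cAUCUUCCagugcaguguugga

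The only 5p seed shared by 2 members was AUCUUAC, carried by miR-200b-5p and miR-200a-5p. No member shared its full sequence with another miRNA. Outside miRNA genes, 7 of the 10 sequences were in no annotated mouse transcript, while those of miR-429-3p and miR-429-5p occurred in Gm13648 and that of miR-141-3p in Gm29008, transcripts that overlap the hairpins themselves.

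The 5 hairpins lie in 2 clusters. Mir200b (chr4:156055681-156055750), Mir200a (chr4:156054896-156054985) and Mir429 (chr4:156053905-156053987) stand in this order on the minus strand of GRCm38, with 695 and 908 bases between them. In GENCODE vM21 they lie inside introns of Ttll10 on the same strand, and Mir429 also within an exon of the processed transcript Gm13648. Mir200c (chr6:124718322-124718390) and Mir141 (chr6:124717914-124717985) are 336 bases apart on the minus strand, in an intron of the antisense transcript Gm15884, and Mir141 overlaps an exon of Gm29008.

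The short sequence GGAG is known as a motif bound by hnRNPA2B1, and GGCU as one bound by SYNCRIP, proteins linked to the loading of miRNAs into exosomes. Searched on the mature strand itself, GGAG was in 14.2% and GGCU in 13.1% of the 1623 listed miRNAs with a RefSeq sequence. Neither was found in any of the 10 members, which says only that these letters are not in the mature strands.

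The cell libraries were much deeper than the exosome libraries, and this limits what can be said of low members. The cell libraries held 2930217 and 2564068 mature counts, the exosome libraries 47447 and 31409. Levels are given as RPM, the count scaled to the sum of the mature counts of its library, and since the members are 21 to 23 bases long they were compared without scaling for length. A single count was worth 0.341 and 0.390 RPM in the cells but 21.1 and 31.8 RPM in the exosomes. RPM is a share, so a fall of a miRNA and a rise of the other miRNAs around it cannot be told apart in such bulk libraries. Intervals cover counting error only.

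The family as a whole took a smaller share of the miRNA reads in the exosomes than in the cells. In the cell libraries 36784 and 34862 counts fell on the family, or 1.26% (95% Wilson interval 1.24 to 1.27) and 1.36% (1.35 to 1.37) of the mature counts. In exosome replicate 1 there were 177 counts, or 0.373% (0.322 to 0.432), and in exosome replicate 2 there were 18 counts, or 0.0573% (0.0363 to 0.0906). The share was lower in each exosome library than in each cell library, and the exosome libraries also differed from each other. Relative to the mean of the cells the share was 3.50 times lower in exosome replicate 1 and 22.8 times lower in replicate 2, a 6.51-fold gap between the 2 exosome replicates. The group mean was 1.31% ± 0.0738 (SD, n = 2) for the cells, against 0.215% ± 0.223 (SD, n = 2) for the exosomes, so the spread in the exosomes was as large as their mean. With 2 libraries against 2, an exact permutation test cannot go below p = 0.33, and none was run on the sum.

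**Figure D1:**
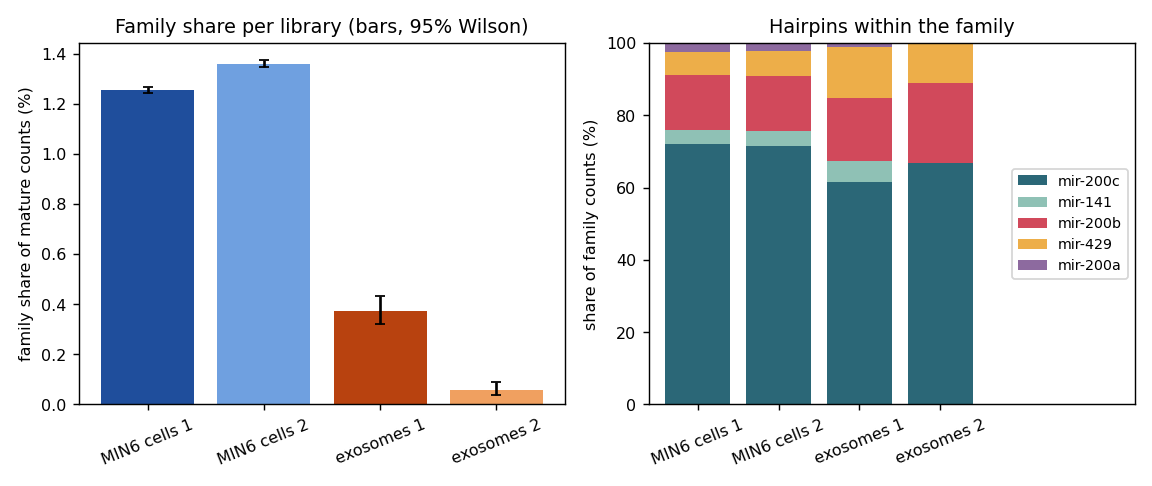
Left, share of the mature counts that fell on the family in each library (percent, bars from 0, error bars 95% Wilson intervals for counting error), with the cells at 1.26% and 1.36% and the exosomes at 0.373% and 0.0573%. Right, share of the family's counts (percent) on each hairpin per library, where mir-200c is the largest part in all 4 libraries.

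A comparison within each library does not depend on how the libraries are scaled. miR-375-3p, the most characteristic β-cell miRNA, served as the partner. The family had 1.38 counts per count of miR-375-3p in each of the cell libraries. In the exosomes this ratio was 0.349 (95% Wilson interval 0.294 to 0.414) in replicate 1 and 0.0811 (0.0504 to 0.130) in replicate 2. Thus the family was lower in exosomes also relative to another miRNA of the same cells. miR-200c-3p alone was nearly equal to miR-375-3p in the cells, with ratios of 0.988 and 0.983, and stood at 0.211 and 0.0541 of it in the exosomes. Per count of let-7, a large miRNA group that took 67.0% and 65.7% of the cell libraries but 40.5% and 14.5% of the exosome libraries, the family reached 0.0187 and 0.0207 counts in the cell libraries but 0.00921 and 0.00395 in the exosome libraries.

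In MIN6 cells the members spanned a wide range of levels. miR-200c-3p led with 9358 ± 497 RPM (SD, n = 2) and ranked 17 among all listed miRNAs by mean RPM in the cells. It was followed by miR-200b-3p at 1339 ± 89.9 RPM, miR-429-3p at 868 ± 78.9, miR-200b-5p at 647 ± 33.9, miR-141-3p at 360 ± 24.4 and miR-200a-3p at 266 ± 1.97 (all SD, n = 2). miR-141-5p (167 ± 2.58 RPM), miR-200a-5p (45.8 ± 10.2) and miR-200c-5p (24.9 ± 2.86) were the lowest of those with a count (SD, n = 2). miR-429-5p had 0 counts in all 4 libraries, which allows up to 1.02 and 1.17 RPM in the cells but up to 63.2 and 95.5 RPM in the exosomes. For every pair of neighbours in this order, both cell libraries of the higher member lay above both of the lower one. The step from miR-200c-3p to miR-200b-3p was 6.99-fold, and that from miR-429-3p to miR-200b-5p, the smallest, 1.34-fold.

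**Figure D2:**
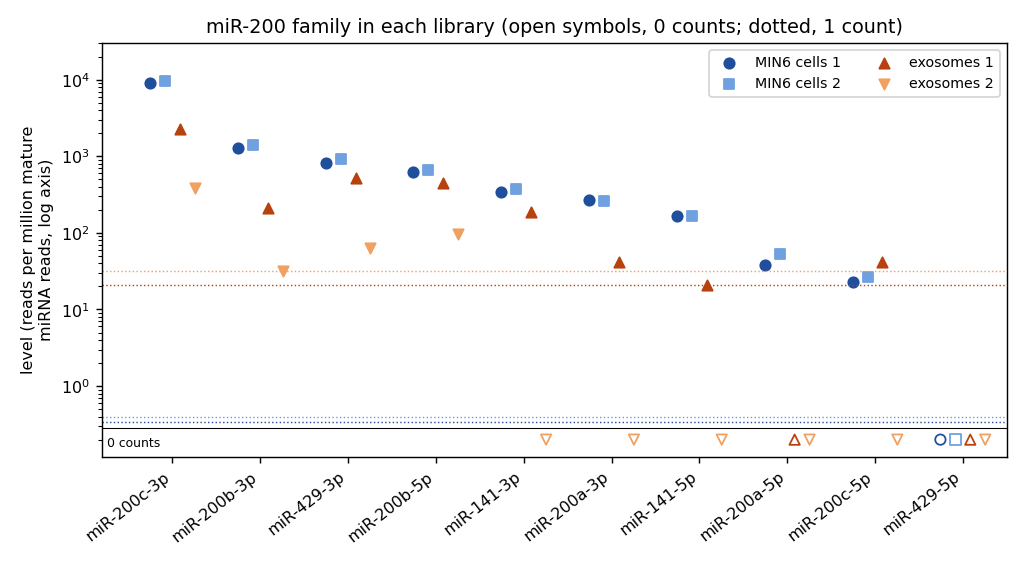
Level of each member in each library (RPM, log axis), ordered by mean level in the cells, with open symbols for 0 counts and dotted lines for the level of 1 count in each library. Exosome replicate 2 has a count for 4 members, miR-200c-3p, miR-200b-3p, miR-429-3p and miR-200b-5p, whose exosome symbols lie below the cell symbols. For miR-200c-5p the symbol of exosome replicate 1, at 2 counts, lies above the cell symbols.

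The hairpins contributed to the family in nearly the same proportions in both cell libraries. mir-200c gave 71.9% and 71.6% of the family's counts, mir-200b 15.1% and 15.3%, mir-429 6.47% and 6.79%, mir-141 4.05% and 4.02%, and mir-200a 2.44% and 2.33%. In exosome replicate 1, mir-200c gave 61.6% (95% Wilson interval 54.2 to 68.4) and mir-429 gave 14.1% (9.75 to 20.0), intervals that do not reach the cell values. In exosome replicate 2, with 18 counts, mir-200c gave 66.7% (43.7 to 83.7) and mir-429 11.1% (3.10 to 32.8), and these intervals hold the cell values. By cluster, the chromosome 4 hairpins held 24.0% and 24.4% of the family in the cells and 32.8% (26.3 to 40.0) and 33.3% (16.3 to 56.3) in the exosomes. The direction was the same in both exosome libraries, but only the deeper one separates it from counting error.

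The split between the seeds was similar in the 2 groups. Among the 3p strands, 94.8% and 94.9% of the counts in cells carried AAUACUG, the seed of miR-200b, miR-200c and miR-429. The exosome libraries had 92.8% (95% Wilson interval 87.6 to 95.9, 142 of 153 counts) and 100% (79.6 to 100, 15 of 15 counts). The remaining 3p counts carried AACACUG, the seed of miR-200a and miR-141. In each exosome library the interval held the cell values.

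Each member was compared between exosomes and cells with the quasi-likelihood test of edgeR under TMM scaling, which scales libraries by a trimmed mean of their ratios, and Benjamini-Hochberg adjustment over the 438 miRNAs that passed a filter on low counts. Of the 10 members 9 were tested, and 7 were lower in exosomes at an adjusted p under 0.05 while 0 were higher. Over all tested miRNAs 29.5% were called lower and 23.7% higher. Of the 9 tested members, 5 reached the filter value in both libraries of the cells only and not in both exosome libraries, so their presence in the test already favours a fall, and the count of 7 is not read as support. The other 4, miR-200c-3p, miR-200b-3p, miR-200b-5p and miR-429-3p, had counts in all libraries, and all 4 were called lower, with a median log2 fold change of -3.56 against -0.75 over all tested miRNAs. The filter value of 7.66 RPM is less than a single count is worth in the exosome libraries, so a single read reaches it there. In exosome replicate 2 miR-200b-3p rests on 1 count, miR-429-3p on 2 and miR-200b-5p on 3. By TMM-scaled values all 9 tested members had both exosome values below both cell values, an arrangement seen in 51.8% of the tested miRNAs. In RPM this did not hold for miR-200c-5p, with 42.2 RPM in exosome replicate 1 against 22.9 and 26.9 RPM in the cells. At the threshold of the study, the exactTest with at least a 2-fold change and a raw p under 0.05, 8 members were lower and 0 higher, against 37.9% and 27.4% of all tested miRNAs. DESeq2 also called 8 members lower, against 32.2% of the miRNAs. The counts of 9 and 8 include members that reached the filter value in the cells only, and are not read as support either.

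miR-200c-3p, the dominant guide strand of the family, was counted 26391 and 24894 times in the cells and 107 and 12 times in the exosomes. These correspond to 9007 and 9709 RPM against 2255 and 382 RPM. Both exosome libraries were lower than both cell libraries, with replicate 2 far below replicate 1. Its fitted log2 change was -4.23 ± 0.88 (standard error), with an adjusted p of 0.0228 in the quasi-likelihood fit of edgeR. Leaving out exosome replicate 1 gave -5.35 and leaving out replicate 2 gave -3.45. Each of these fits leaves a single exosome library, so its error does not hold the gap between the exosome replicates, and no p is given. Pooled over libraries, 119 counts were seen in the exosomes, where an unchanged level would give 1871 under TMM and 736 by library size.

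miR-200b-3p shares the seed of miR-200c-3p and was counted 3738 and 3597 times in the cells against 10 times and 1 time in the exosomes. In RPM this was 1276 and 1403 against 211 and 31.8. Its log2 change of -4.74 ± 0.72 (standard error), adjusted p = 0.0119 in edgeR, ranked 48 from the lowest among the 438 tested. It ranged from -6.13 without exosome replicate 1 to -4.06 without exosome replicate 2. Whether it fell more than miR-200c-3p was not tested.

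miR-429-3p, the third strand with this seed, was counted 2379 and 2368 times in the cells against 25 and 2 times in the exosomes, or 812 and 924 RPM against 527 and 63.7. Both exosome libraries were lower than both cell libraries, and how far replicate 1 lay below the cells depended on the scaling. After TMM scaling the level of miR-429-3p was 1232 and 1509 CPM in the cells against 295 and 46.6 CPM in the exosomes, a wider gap for replicate 1 than in RPM. The log2 change was -2.89 ± 0.81 (standard error, adjusted p = 0.0437 in edgeR), and without exosome replicate 1 or 2 it was -4.50 or -2.11. A difference between miR-429-3p and its cluster neighbour miR-200b-3p was not tested.

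The strands with the AACACUG seed were near the limit of the exosome libraries. miR-200a-3p was counted 783 and 678 times in the cells against 2 and 0 times in the exosomes, where 53.3 would be seen in both libraries together at an unchanged level under TMM. Its pooled level was 26.7-fold lower (counting interval 7.37 to 220), and the fitted log2 change of -4.78 had an adjusted p of 0.0134 in edgeR. miR-141-3p was counted 1005 and 968 times in the cells against 9 and 0 times in the exosomes, or 343 and 378 RPM against 190 and 0. All exosome counts of miR-141-3p came from replicate 1, and its log2 change of -3.16 ± 0.99 (standard error) missed the threshold with an adjusted p of 0.0548 in edgeR. Without exosome replicate 2 the value was -2.32, in a fit that leaves a single exosome library. Without exosome replicate 1 no exosome count of miR-141-3p or miR-200a-3p was left, and the fitted values of -12.38 and -11.94 then depend on the prior count and are no measure of the fall.

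Among the 5p strands, miR-200b-5p was the most abundant. Its fitted fall was the smallest of the 4 members counted in all libraries, but its difference from miR-429-3p was not tested. It was counted 1825 and 1720 times in the cells against 21 and 3 times in the exosomes, or 623 and 671 RPM against 443 and 95.5. The fitted log2 change was -2.59 ± 0.64 (standard error, adjusted p = 0.0328 in edgeR). Without cell replicate 2 the value was -3.14 and the call was lost, in a fit that leaves a single cell library. Without exosome replicate 1 or 2 the value was -3.50 or -1.94.

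The other 5p strands held 2 or fewer counts in each exosome library. miR-141-5p was counted 483 and 432 times in the cells against 1 and 0 times in the exosomes, a pooled level 33.4-fold lower under TMM (counting interval 5.98 to 1320), and it passed the test with a log2 change of -5.07 (adjusted p = 0.0108 in edgeR). Without exosome replicate 1 its only exosome count was gone, and the fitted -11.27 is no measure either. miR-200a-5p was counted 113 and 136 times in the cells and never in the exosomes. Against a floor of 3 counts over both exosome libraries it was at least 3.03-fold lower under TMM but only at least 1.19-fold lower by library size, although its adjusted p was 0.0344 in edgeR. It lost the call in the fit without exosome replicate 1, which leaves a single exosome library. For miR-200c-5p, counted 67 and 69 times in the cells against 2 and 0 times in the exosomes, no difference was detectable at this depth, as 4.96 exosome counts would be seen at an unchanged level under TMM and 1.95 by library size.

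The size of these changes depended on the scaling. Over all tested miRNAs the median log2 change was -0.75 under TMM and 0.61 when libraries were scaled by their size alone, and the members with a count in the exosomes moved up by a similar amount. By library size alone 3 members remained past the threshold (miR-200b-3p, miR-200a-3p and miR-141-5p), where 6.85% of all tested miRNAs were called lower. Of these, miR-200a-3p and miR-141-5p did not reach the filter value in both exosome libraries, so the count of 3 is not read as support. Of the 4 members counted in all libraries, miR-200b-3p alone stayed past the threshold (adjusted p = 0.0353 in edgeR). miR-200c-3p then had a log2 change of -2.80 (adjusted p = 0.0722 in edgeR), miR-429-3p -1.49 and miR-200b-5p -1.20. The fitted value of miR-200c-5p turned from -1.35 to 0.015, while the other 8 tested members stayed below 0.

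**Figure D3:**
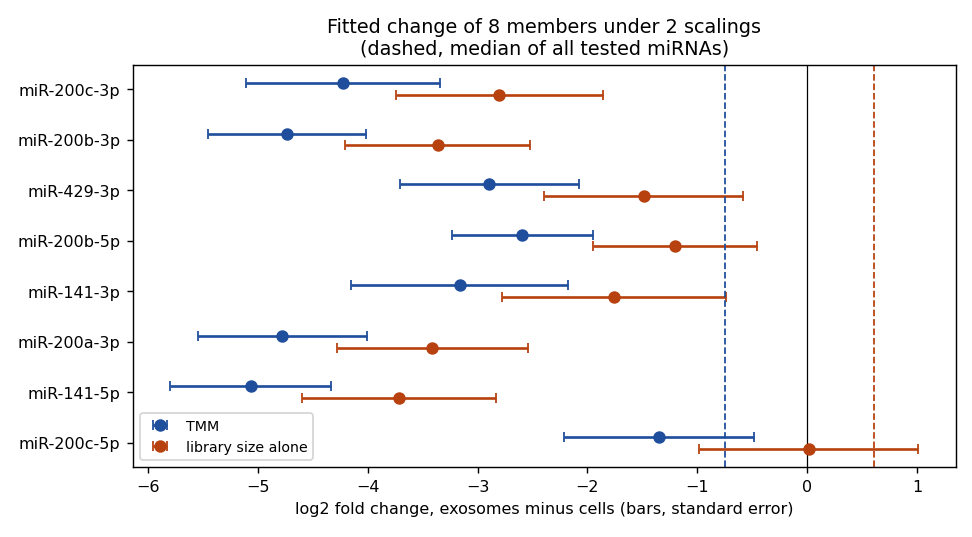
Fitted log2 fold change (exosomes minus cells) of 8 members with its standard error, under TMM and under library size alone, with dashed lines at the medians of all tested miRNAs, -0.75 and 0.61. miR-200a-5p, without a count in the exosomes, and the untested miR-429-5p are left out, and with library size alone all points but that of miR-200c-5p lie to the left of 0 beyond their standard error.

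The arms of a hairpin come from the same precursor, so their ratio within a library shows how the strands fared against each other without any scaling. The hairpin of mir-200b is printed because its arms changed places, with the 5p strand first and the 3p strand second in capitals.
mir-200b: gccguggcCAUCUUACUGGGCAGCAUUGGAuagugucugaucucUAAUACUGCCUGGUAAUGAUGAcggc

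In the cells the 3p arm was the larger, with 67.2% and 67.7% of the arm counts of mir-200b. In the exosomes the 5p arm was, and the 3p share was 32.3% (95% Wilson interval 18.6 to 49.9, 10 of 31 counts) in replicate 1 and 25.0% (4.56 to 69.9, 1 of 4 counts) in replicate 2. The interval of replicate 1 lies below the cell values, while that of replicate 2 holds them. The mean 3p share was 67.4% ± 0.323 (SD, n = 2) for the cells, against 28.6% ± 5.13 (SD, n = 2) for the exosomes, a difference larger than the spread between replicates, for which 2 libraries against 2 allow no p below 0.33.

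The other hairpins showed no such reversal. For mir-200c the 3p arm held 99.7% of the arm counts in both cell libraries and 98.2% (93.6 to 99.5) and 100% (75.8 to 100) in the exosomes. All counts of mir-429 were on the 3p arm in every library. For mir-141 the 3p share was 67.5% and 69.1% in the cells and 90.0% (59.6 to 98.2, 9 of 10 counts) in exosome replicate 1, the opposite direction to mir-200b, with an interval that holds the cell values. For mir-200a it was 87.4% and 83.3% in the cells, and the exosomes held 2 counts, both 3p. Over the whole family 93.2% of the counts in both cell libraries were 3p, against 86.4% (80.6 to 90.7) and 83.3% (60.8 to 94.2) in the exosomes.

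**Figure D4:**
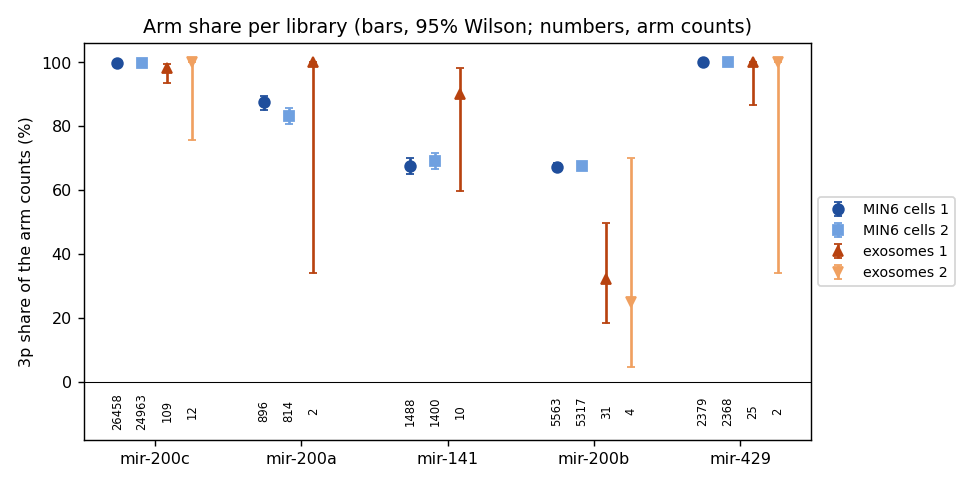
Share of the 3p arm among the arm counts of each hairpin (percent) per library, with 95% Wilson intervals and the number of arm counts under each point; a library without arm counts has no point. mir-200b stands at 67.2% and 67.7% in the cells and at 32.3% and 25.0% in the exosomes.

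Reads that lie on a hairpin but on neither annotated arm were rare for the family in the cells. They were 11 of 36795 and 23 of 34885 reads on the 5 hairpins. In the exosomes they were 42 of 219 (19.2%, 95% Wilson interval 14.5 to 24.9) and 3 of 21 (14.3%, 4.98 to 34.6), and all of them lay on mir-200c. There they made up 27.8% (21.3 to 35.4) and 20.0% (7.05 to 45.2) of the hairpin's reads, against 0.0227% and 0.0521% in the cells. Over all hairpins such reads were 10.9% and 9.58% in the cell libraries but 32.8% and 42.0% in the exosome libraries. Where on the mir-200c hairpin these reads fall is not given by the counts, and their part in the level of miR-200c-3p was not tested.

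Other miRNAs known for an epithelial role or for restraining epithelial-mesenchymal transition were read from a list of 8. Of these 3 were tested and 1 was lower in exosomes, a share near the 29.5% of all tested miRNAs. This was miR-183-5p, which fell by 3.65 on the log2 scale from 19749 and 18044 counts to 109 and 18 (adjusted p = 0.0202 in edgeR). miR-182-5p, of the same cluster, was counted 758 and 607 times in the cells against 5 and 12 times in the exosomes. Its log2 change under TMM was -1.32 (adjusted p = 0.205 in edgeR), with exosome replicate 2 here above replicate 1. As a share of the mature counts, exosome replicate 2 also lay above both cell libraries. miR-34a-5p, a p53 target, had 74 and 75 counts against 2 and 2 in the far shallower exosome libraries. Its TMM-scaled values overlapped between the groups, and no difference was detected (log2 change -0.43, adjusted p = 0.575 in edgeR). miR-203-3p, miR-205-5p and miR-96-5p, the last of the miR-183 cluster, held between 2 and 24 counts in each cell library and were not tested, and miR-34b-5p and miR-34c-5p had 0 counts throughout. The low miR-203-3p and miR-205-5p, markers of stratified epithelia, stood beside the high miR-200c-3p in the same cells.

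The summed levels of cell type markers moved in opposite directions between the groups. The 3 β-cell miRNAs, miR-375-3p, miR-375-5p and miR-7a-5p, were abundant in the cells and together held 36305 and 36332 RPM there and 19116 and 8182 RPM in the exosomes. This sum does not stand for each of them. miR-375-3p was counted 26702 and 25335 times in the cells against 507 and 222 times in the exosomes. As a share of the mature counts, its exosome replicate 1 lay above both cell libraries and replicate 2 below both. Its log2 change under TMM was -1.43, against -2.87 for miR-375-5p and -3.94 for miR-7a-5p. Of 10 markers of mesenchymal, endothelial, erythroid and liver cells, 8 were tested, and all 8 were called higher in the exosomes, against 23.7% of all tested miRNAs. Of the 8, however, 5 reached the filter value in both exosome libraries but not in both cell libraries, so that their presence in the test already favours a rise, and the count of 8 is not read as support. The other 3, miR-143-3p, miR-126a-3p and miR-126a-5p, reached it in all 4 libraries. The 5 mesenchymal miRNAs, miR-143-3p, miR-145a-5p, miR-199a-5p, miR-199a-3p and miR-214-3p, summed to 15.0 and 10.1 RPM in the cells and to 1791 and 1878 RPM in the exosomes. The endothelial pair, miR-126a-3p and miR-126a-5p, rose from 49.1 and 63.6 RPM to 9274 and 9201 RPM. The liver miRNA miR-122-5p had 4.44 and 8.19 RPM in the cells and 1665 and 1974 RPM in the exosomes. The erythroid miR-451a and miR-144-3p had 0 counts in the cells but 37 and 2 counts together in the exosome libraries. The sums of the mesenchymal, endothelial and liver markers were similar in both exosome replicates, whereas the erythroid and β-cell sums and that of the miR-200 family were lower in replicate 2, and the part of these markers in the fall of the family was not tested. The exosome and cell libraries were also quality-checked on different instruments according to the study's methods, and this difference and the group cannot be told apart. For its qRT-PCR the study isolated miRNA of exosomes and of cells with different kits. Its sequencing methods name no isolation kit, and a difference of kit could not be told apart from the group either.

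**Figure D5:**
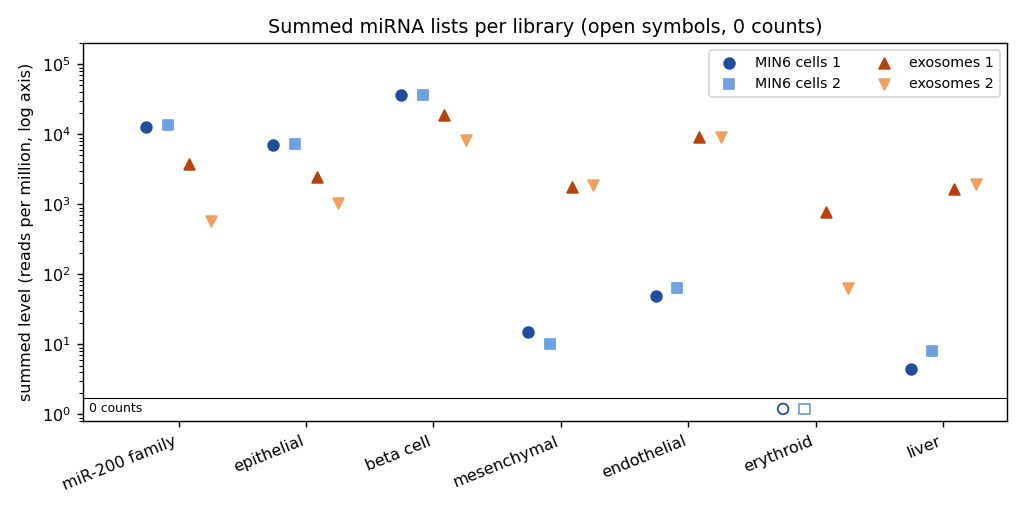
Summed level of the miR-200 family and of each marker list per library (RPM, log axis, open symbols for 0 counts). The family and the β-cell list lie lower in both exosome libraries, and the mesenchymal, endothelial, erythroid and liver lists lie higher in them.

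The miRNAs whose pattern was most like that of miR-200c-3p were sought by the distance between centred log2 levels over the 4 libraries. The nearest non-members were miR-148b-3p (distance 0.356), miR-7a-5p (0.376) and miR-130b-5p (0.401). miR-7a-5p, an abundant islet miRNA, was counted 78620 and 67072 times in the cells against 394 and 32 times in the exosomes. miR-130b-5p held 1854 and 1557 counts against 7 and 1, and miR-148b-3p 234 and 228 against 1 and 0, so that its place rests on a single exosome count. Within the family miR-200b-3p was the nearest, at rank 9 of the tested miRNAs (distance 0.629), and miR-141-3p the farthest, at rank 140. With 4 libraries this likeness mostly restates the fold change and the gap between the exosome replicates.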

How the data were processed

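The authors polyadenylated and reverse-transcribed small RNA (SMARTer smRNA-Seq kit), trimmed adapters, discarded rRNA reads and aligned the rest in sequence to the genome (mm10 in the submitters' processing notes), miRBase v21 and RNAcentral. They deposited raw read counts per mature miRNA, RPM values, found here to equal the count over the library sum, and counts per hairpin with the part on neither arm. A further 8 columns (hairpin reads split by arm) were left aside, since some of their fields join several numbers. Groups and replicates were taken from the sample titles.

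miRNAs were kept by filterByExpr (minimum count 10), leaving 438 of 1101 with a count, and compared by edgeR 4.0.16 (quasi-likelihood test, TMM, Benjamini-Hochberg) in R 4.3.3. Standard errors are the absolute log2 fold change divided by the root of F. Called means an adjusted p under 0.05. The floor is 3 counts. Pooled ratios carry exact binomial counting intervals, and shares 95% Wilson intervals (scipy 1.17.1). In 10 simulations of 438 miRNAs, a median of 33.0%, 70.6% and 95.8% of miRNAs changed by 1.5, 2.5 and 4 on the log2 scale were recovered. A median of 2.26% of the calls were false. All simulated miRNAs had the same dispersion and recovery was pooled over all levels, so these values do not give the recovery for members with few exosome counts.

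All 10 members are named. Non-members named are those of the epithelial and cell-type lists and the 3 tested miRNAs nearest to the most abundant member, by Euclidean distance of centred log2 CPM (prior count 2). The members and lists were chosen with earlier results of these data known. Alternatives were other scalings, filters and tests (DESeq2 1.42.0, exactTest), a replicate block, removal of the 5 leading miRNAs per group, and removal of each library.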

Additional observations from a re-analysis of the deposited data

How the results depend on the processing

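Of the 10 members, 7 were lower in exosomes and 0 higher in the main analysis, against 129 and 104 of all 438 tested miRNAs. Under every alternative that kept all 4 libraries 0 members were higher. With library size alone 3 members were lower, where 30 of 438 miRNAs were lower and 137 higher. With at least 10 counts in every library miR-200c-3p alone was tested and was lower, where 40 of 100 miRNAs were lower and 37 higher. When 1 library was left out, 6 members were tested without cell replicate 1 or 2, and 9 without exosome replicate 1 or 2. Such a fit leaves a single library in a group, so its count of calls is not given. The number of members lower was 7 or 8 under RLE, upper quartile scaling, DESeq2, exactTest, no filter and without the 5 most abundant miRNAs of each group. Over all 438 tested miRNAs, 132 were lower under RLE, 95 under upper quartile scaling, 141 under DESeq2 and 166 with the exactTest. Without a filter 202 of 1101 were lower, and without the 5 most abundant 133 of 432. The member counts of 7 and 8 include members that reached the filter value in the cells only, and are not read as support. The log2 fold change of miR-200c-5p was -1.35 in the main analysis and reversed to 0.015 with library size alone. With the replicate block 8 members were lower, miR-141-3p being added, against 109 of all 438 tested miRNAs. The titles do not say whether same-numbered libraries come from one culture. Their deviations correlated at 0.194 over 438 miRNAs, which with 2 pairs does not settle whether the numbers pair them. The family's share of counts was 2.98% in cells and 0.468% in exosomes without the 5 most abundant miRNAs of each group, by construction, and 0.803% in cells and 0.0890% in exosomes by hairpin counts, where a read can count at several hairpins. The ratio of cells to exosomes was 6.08 by mature counts and 9.02 by hairpin counts. With both arms counted, the hairpins whose 3p strand carries AAUACUG held 93.6% of the family's counts in cells. Leaving out 1 library at a time moved the family's share between 1.26% and 1.36% in cells and between 0.0573% and 0.373% in exosomes. The exosome depth limits the members below about 63.2 and 95.5 RPM, the level of 3 counts.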
